A study of Mus musculus with 4 samples.

Results

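The glutathione peroxidases and the enzymes that set how readily membrane lipids oxidise were followed in cultured mouse oesophageal cells that carry a mutant NRF2. The group holds 9 of the 24444 genes in the deposited matrix, taken by gene symbol. It comprises 6 glutathione peroxidase genes (Gpx1, Gpx2, Gpx3, Gpx4, Gpx7 and Gpx8) and 3 further regulators of ferroptosis (Aifm2, Acsl4 and Lpcat3). All 9 symbols were found, and 7 were high enough to test. Poly(A) RNA was sequenced from 2 wild-type libraries (labelled Nrf2_WT, with no treatment and no cassette) and 2 heterozygous libraries (labelled Nrf2_HET). The heterozygous samples are described as made by CRISPR/Cas9 microinjection with the cassette Nfe2l2-E79Q. They are called E79Q cells here. All 4 libraries are from strain C57BL/6J. The series title speaks of a conditional mouse. The sources used here do not give the Cre line or the age of the animals. They also do not say whether the replicates of a genotype came from separate animals. The p-values therefore cannot be taken to measure a spread between animals. They rest on the spread between these libraries, for the most part as shared across genes. The column names carry the word SV40, which the labels do not explain. The series' design text describes a human cell line instead and was not followed.

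Glutathione peroxidases reduce hydrogen peroxide and lipid hydroperoxides with electrons from glutathione. GPX4 is the member that acts on oxidised phospholipids inside membranes, and its loss permits ferroptosis, a form of cell death driven by iron and lipid peroxidation. AIFM2, also called FSP1, protects membranes by a separate route, through reduction of coenzyme Q. ACSL4 and LPCAT3 act in the opposite direction, because they place polyunsaturated fatty acids, the substrates of peroxidation, into phospholipids. NRF2, encoded by Nfe2l2, is a transcription factor of antioxidant genes, and GPX2 is among its known targets in epithelia.

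The 6 glutathione peroxidases differ in the codon at their catalytic centre, which is shown because it separates the genes that depend on selenium from those that do not. In the coding sequences of GENCODE release M21 (GRCm38), Gpx1, Gpx2, Gpx3 and Gpx4 each hold 1 in-frame TGA codon that is annotated as selenocysteine. Gpx7 and Gpx8 hold none, and the aligned codon is TGT or TGC, which encode cysteine. Each line gives 27 bases of coding sequence, 5′ to 3′, with the catalytic codon in capitals.
Gpx1: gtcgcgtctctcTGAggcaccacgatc
Gpx2: gtggcgtcactcTGAggaacaactacc
Gpx3: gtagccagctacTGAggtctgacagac
Gpx4: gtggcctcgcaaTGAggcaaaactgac
Gpx7: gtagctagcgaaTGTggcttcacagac
Gpx8: gtggctagtgacTGCcgcttcacagac
The codon is number 47 of the Gpx1 reading frame, 40 of Gpx2, 73 of Gpx3, 129 of Gpx4 in its longest annotated coding transcript, 56 of Gpx7 and 79 of Gpx8.

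The cells had the profile of squamous epithelium. All 10 squamous markers (among them Krt5, Krt14 and Trp63) were high enough to test. Their summed normalised count was 159520 and 153387 in wild type and 150574 and 156702 in E79Q cells. Of the 10, 2 (20%) were called higher and 3 (30%) lower in E79Q cells, beside 21.5% and 18.9% of all genes tested. Of 10 fibroblast markers only Col1a1 was high enough to test, and it was called lower in E79Q cells (E79Q minus wild type -1.29). The summed fibroblast count was 460 and 468 in wild type and 126 and 134 in E79Q cells, with Lum and Dpt at the floor of the table in every library. Smooth muscle markers summed to 982 and 1028 in wild type and to 316 and 293 in E79Q cells. Of the 6 listed, 2 were tested and 2 were called lower (median E79Q minus wild type -0.92). The leukocyte markers Ptprc, Adgre1, Cd3e and Cd79a were at the floor in all 4 libraries, while Cd68 was called higher in E79Q cells. Nfe2l2 itself had values of 11.38 and 11.27 in wild type against 11.17 and 11.27 in E79Q cells, and was not called (limma adjusted p = 0.154).

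Values are variance-stabilised and lie on a log2 scale with a floor at 6.98, where the inverted count is 0. A difference is E79Q minus wild type ± moderated SE over 2 replicate pairs. Calls were made in limma at 0.05 after Benjamini-Hochberg adjustment over all 10857 genes tested. Of the 7 genes of the group that were tested, 1 was called higher, beside 21.5% of all genes tested, and 3 were called lower, beside 18.9% of all genes tested. Gpx2 rose, Gpx1, Gpx8 and Lpcat3 fell, and Gpx4, Aifm2 and Acsl4 were not called. The median difference over the 7 genes was -0.05, against 0.01 over all genes tested. The genotypes did not overlap in 5 of the 7 genes. In 1 of these E79Q cells were higher, beside 41.1% of all genes tested, and in 4 they were lower, beside 38.1%. The deposited values had been centred on the replicate number, so the gap between replicates is the same in both genotypes of a gene, with opposite sign.

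**Figure D1:**
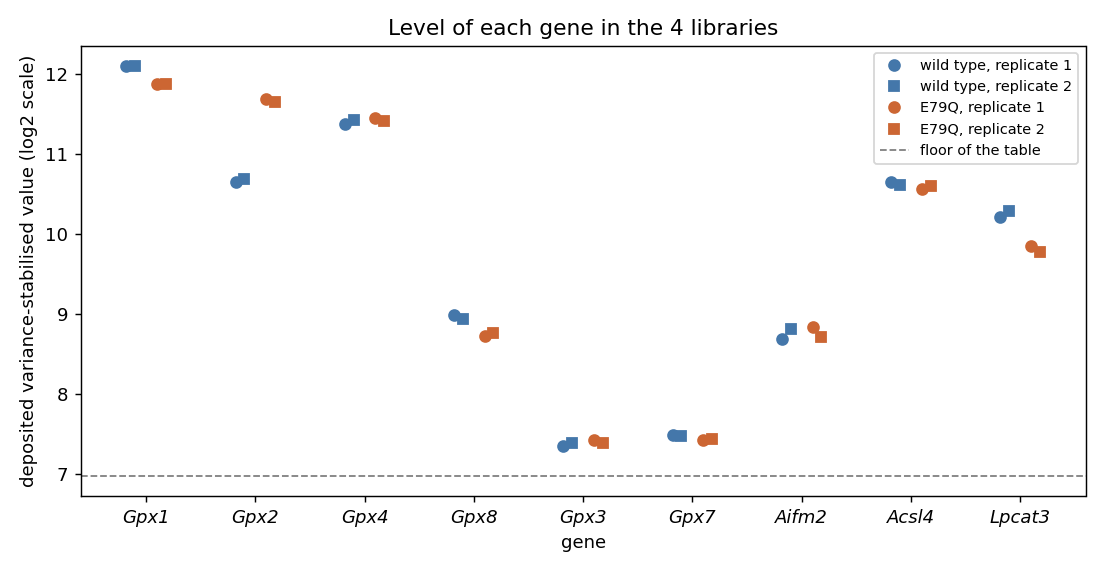
Deposited variance-stabilised value (vertical axis, log2 scale) of each gene in the 4 libraries. Blue points are wild type and orange points E79Q, circles are replicate 1 and squares replicate 2, and the dashed line is the floor of the table at 6.98. Gpx2 stands higher in both E79Q libraries, Gpx1, Gpx8 and Lpcat3 stand lower, and Gpx3 and Gpx7 lie close to the floor.

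Gpx2, a selenocysteine enzyme typical of epithelia of the digestive tract, showed the largest change of the group. The wild-type libraries stood at 10.65 and 10.69, and the E79Q libraries at 11.68 and 11.64. Both E79Q libraries therefore lay far above both wild-type libraries. Gpx2 rose by 0.99 ± 0.05 (limma adjusted p = 4.06e-10, n = 2 pairs), by 1.04 in pair 1 and 0.95 in pair 2. In such bulk libraries, more cells of a type and more RNA per cell cannot be told apart. In normalised counts, obtained by inverting the variance stabilisation, this was a rise from 1361 and 1409 to 3044 and 2947, a ratio of 2.16. It was the 50th largest rise among the 10857 genes tested. A pseudogene of the family, Gpx2-ps1, lay at the floor in all 4 libraries.

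The genes with the most similar pair differences to Gpx2 were 2 glutathione transferase genes, Gstp2 and Gsto1, and Sh3tc2. The measure was the distance between the 2 pair differences of each gene, with 4 libraries behind it. Gstp2 differed by 1.01 in both pairs (distance 0.064), Sh3tc2 by 1.08 and 0.90 (0.071), and Gsto1 by 0.98 and 1.03 (0.10). Gstp2 has near-identical relatives, and how the counting divided reads among them is uncertain.

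Gpx1, the most abundant family member and a cytosolic peroxidase of hydrogen peroxide, fell slightly. Both wild-type libraries stood at 12.09 and both E79Q libraries at 11.88, without overlap. The replicates were nearly equal, by a gap that the centring makes the same in both genotypes. The fall was 0.21 ± 0.05 (limma adjusted p = 0.00153, n = 2 pairs). Normalised counts were 4111 and 4113 in wild type and 3513 and 3511 in E79Q cells, a ratio of 0.854.

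Gpx4, the phospholipid hydroperoxidase that opposes ferroptosis, was not called. Its values were 11.37 and 11.42 in wild type and 11.45 and 11.41 in E79Q cells, and the genotypes overlapped. The difference was 0.03 ± 0.05 (limma adjusted p = 0.632), with a 95% confidence interval from -0.07 to 0.14. The difference was 0.07 in pair 1 and -0.010 in pair 2. Gpx4 produces cytosolic, mitochondrial and nuclear forms from alternative starts, which a value per gene does not separate.

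Gpx8, a cysteine enzyme of the endoplasmic reticulum, fell. The wild-type values were 8.98 and 8.94 and the E79Q values 8.72 and 8.76, without overlap. The fall was 0.22 ± 0.07 (limma adjusted p = 0.0161, n = 2 pairs), by 0.26 in pair 1 and 0.18 in pair 2. The scale compresses low genes, and normalised counts went from 284 and 271 to 207 and 218, a ratio of 0.767. On a log2 scale of normalised counts the fall was 0.38. The summed fibroblast and smooth muscle marker counts given above were lower in the same libraries. Their part in the fall of Gpx8 was not tested.

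Gpx7, the other cysteine enzyme of the endoplasmic reticulum, and Gpx3, the secreted plasma enzyme, were barely expressed and did not enter the test. Gpx7 had normalised counts of 15.8 and 15.2 in wild type and 12.2 and 12.8 in E79Q cells. Gpx3 had 8.20 and 10.2 in wild type and 12.3 and 10.1 in E79Q cells, with overlap between the genotypes. When no filter was applied, neither was called (limma adjusted p = 0.652 for Gpx7 and 0.736 for Gpx3). The remaining family members, Gpx5 and Gpx6, lay at the floor in all 4 libraries. A count of 0 does not show absence, since it allows an expected count of up to 3 in each library before scaling.

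**Figure D2:**
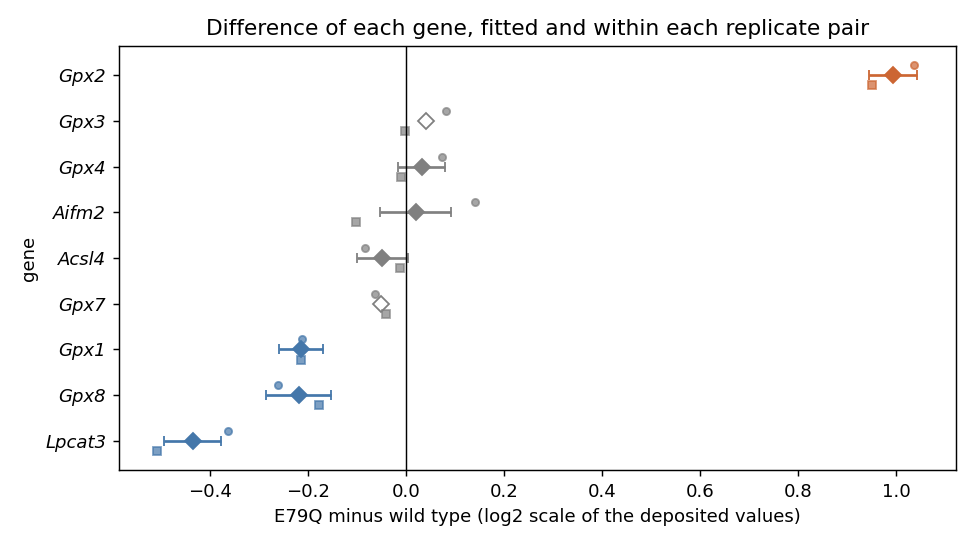
E79Q minus wild type (horizontal axis, log2 scale of the deposited values) for each gene. Diamonds with bars are the fitted difference ± moderated SE, small circles are pair 1 and small squares pair 2. Orange marks a call higher, blue a call lower, grey no call, and an open diamond a gene that was not tested. Gpx2 stands alone at 0.99, and the pairs of Aifm2, Gpx4 and Gpx3 lie on opposite sides of 0.

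Levels of different genes were compared per length, as normalised counts per kb of the longest protein-coding transcript in GENCODE M21. In wild type the order was Gpx1 (3834 and 3837 per kb), Gpx4 (2420 and 2499), Gpx2 (1276 and 1321), Gpx8 (273 and 260), Gpx7 (12.3 and 11.8) and Gpx3 (5.15 and 6.41). No 2 neighbours in this order overlapped between the replicates. In E79Q cells Gpx2 (2852 and 2762 per kb) stood above Gpx4 (2561 and 2480), and Gpx1 remained first (3277 and 3275). Among the 10534 tested genes with a length, Gpx1, Gpx4 and Gpx2 lay at the 98.4, 97.3 and 93.9 percentiles of the wild-type level per kb, and Gpx8 at 61.9.

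As a share of the summed level per kb of the 6 peroxidases, Gpx2 made up 16.3% and 16.6% in wild type, against 32.0% and 31.6% in E79Q cells. Gpx1 made up 49.0% and 48.4% in wild type and 36.8% and 37.5% in E79Q cells. Gpx4 accounted for 30.9% and 31.5% in wild type and 28.7% and 28.4% in E79Q cells. The sum itself was 7821 and 7935 per kb in wild type and 8906 and 8743 in E79Q cells. These shares are descriptions of 2 libraries per genotype, and their absolute size depends on the transcript chosen for each length.

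**Figure D3:**
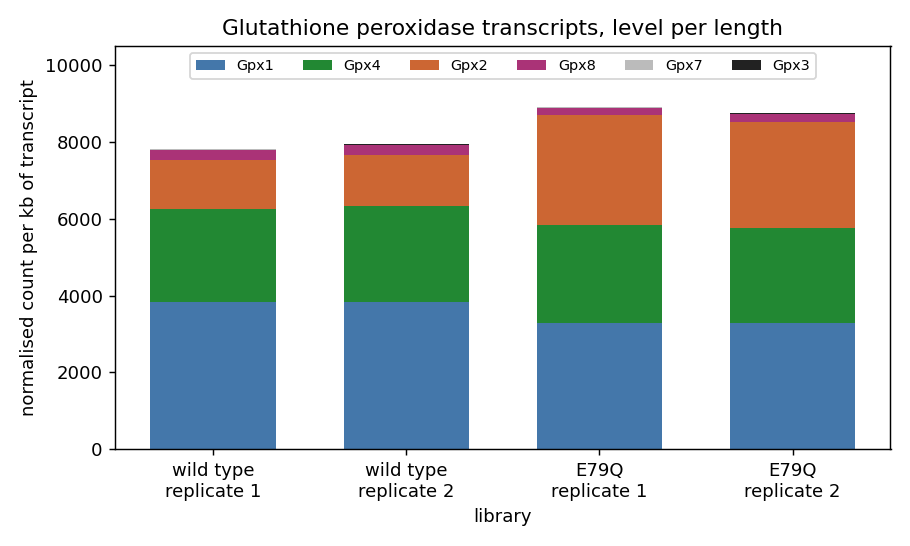
Normalised count per kb of transcript (vertical axis) of the 6 glutathione peroxidase genes, stacked for each of the 4 libraries (horizontal axis). The Gpx2 segment grows from 1276 and 1321 in wild type to 2852 and 2762 in E79Q cells, and the Gpx1 segment shrinks. Gpx7 and Gpx3 are too low to be visible at this scale.

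Among the other regulators, Lpcat3 had the largest fall of the group. LPCAT3 attaches polyunsaturated acyl chains to lysophospholipids. Wild-type values of Lpcat3 were 10.21 and 10.29, E79Q values were 9.85 and 9.78, and the genotypes were well separated. The fall was 0.44 ± 0.06 (limma adjusted p = 2.52e-05, n = 2 pairs), by 0.36 in pair 1 and 0.51 in pair 2. Normalised counts were 949 and 1009 in wild type and 689 and 644 in E79Q cells, a ratio of 0.681. It ranked 319th among the falls of the 10857 genes tested. The genes with the most similar pair differences were Zmynd8 (-0.37 and -0.50, distance 0.010), Bok (-0.36 and -0.52, 0.011) and Emc8 (-0.35 and -0.50, 0.019).

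Acsl4, the ligase that activates arachidonic acid and related polyunsaturated fatty acids, was not called. Wild-type values were 10.65 and 10.61 and E79Q values 10.56 and 10.60, with the E79Q libraries lower by a narrow margin. The difference was -0.05 ± 0.05 (limma adjusted p = 0.489), with a 95% confidence interval from -0.16 to 0.06.

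Aifm2, the coenzyme Q reductase that acts beside GPX4, was not called either. Its values were 8.69 and 8.81 in wild type and 8.83 and 8.71 in E79Q cells, and the genotypes overlapped. The difference was 0.02 ± 0.07 (limma adjusted p = 0.855), with a 95% confidence interval from -0.14 to 0.18. The pairs disagreed, with 0.14 in pair 1 and -0.10 in pair 2, and the direction of this uncalled difference turned without replicate 1 (-0.041, the same value whichever genotype's replicate 1 is left out, because of the centring).

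The promoter windows of all 9 genes (12 windows of 300 bases, 250 before and 50 after the start, RefSeq, GRCm38.p6) were searched for TGACNNNGC, the core of the antioxidant response element to which NRF2 binds, on both strands. It was found in 0 of these 12 windows and in 12.4% of all 32851 windows of the same length. This says only that these letters are not in these windows.

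The genes around this group were read from 8 lists with 108 genes, of which 89 were tested. Over these lists 26 (29.2%) were called higher and 17 (19.1%) lower, beside 21.5% and 18.9% of all genes tested, so the share called lower was near the background. The median difference was 0.0097, against 0.0062 over all genes tested.

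Cystine import and glutathione supply, which feeds the peroxidases, had 9 called higher (75.0%) and 0 lower of 12 tested, with a median of 0.33. Of all genes tested, 21.5% were called higher and 18.9% lower. The largest rises were in Gclc (1.94 ± 0.05), which encodes the catalytic subunit of glutamate-cysteine ligase, Slc7a11 (1.53 ± 0.04), the cystine importer, and Gclm (1.39 ± 0.05), the ligase's modifier subunit. Gsr, which returns oxidised glutathione to its reduced form, was not called (0.09 ± 0.05, limma adjusted p = 0.157). Chac1, which degrades glutathione, stood at -0.12 ± 0.05 and was not called (limma adjusted p = 0.0629). Chac1 was the only tested gene of this list with a negative difference. It was called lower without the replicate block, after median centring and after quantile normalization. Its call also changed whichever library was left out, so the absence of calls lower in this list depends on the setting.

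Enzymes that quench lipid radicals beside GPX4 had 5 called higher (35.7%) and 0 lower of the 14 tested genes counted here. These shares stand beside 21.5% and 18.9% of all genes tested. The median of the list was 0.09. Nqo1, a quinone reductase, rose by 2.23 ± 0.06. Gch1, the first enzyme of tetrahydrobiopterin synthesis, rose by 0.61 ± 0.06 and Mgst1, a microsomal glutathione transferase, by 0.50 ± 0.06. Dhodh, a mitochondrial coenzyme Q reductase, was not called (0.11 ± 0.08, limma adjusted p = 0.259).

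The next list was fatty acid supply to phospholipids and their remodelling, to which Acsl4 and Lpcat3 are related by function. It had 1 called higher (5.56%) and 9 lower (50%) of 18 tested, with a median of -0.14. All genes tested had 21.5% called higher and 18.9% lower. The largest falls were in Scd2 (-0.90 ± 0.06) and Scd1 (-0.58 ± 0.05), desaturases that make monounsaturated fatty acids, and in Lpcat1 (-0.43 ± 0.06), a lysophospholipid acyltransferase that favours saturated chains. Acsl1, a long-chain acyl-CoA synthetase, rose by 0.29 ± 0.06. The called genes named here thus include enzymes of saturated and monounsaturated chains, although the list was drawn up for polyunsaturated ones. The calls higher were 2 without the replicate block and without replicate 2 of wild type or of E79Q.

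Lipid-oxidising enzymes were mostly low. Of 13 listed 5 were tested, with 1 called higher and 2 lower, too few to read a share from. Cyb5r1, an oxidoreductase linked to phospholipid peroxidation, rose by 0.45 ± 0.05. Pebp1, a partner of 15-lipoxygenase, fell by 0.21 ± 0.05 and Por, cytochrome P450 reductase, by 0.17 ± 0.05. Por was not called without the replicate block (limma adjusted p = 0.0722), without a variance trend (0.0530) or with no filter (0.0559). Of the lipoxygenase genes, Alox12 was the only one high enough to test and was not called (0.06 ± 0.07, limma adjusted p = 0.498).

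Iron genes had 3 called higher and 3 lower of 15 tested, with a median of -0.04. That is 20.0% in each direction, near the 21.5% and 18.9% of all genes tested. The ferritin chains Ftl1 and Fth1, which store iron, rose by 0.94 ± 0.04 and 0.63 ± 0.05, and Hmox1, haem oxygenase, by 0.24 ± 0.06. Slc40a1, the iron exporter, fell by 0.21 ± 0.07, Aco1, which doubles as an iron-sensing RNA-binding protein, by 0.19 ± 0.06, and Tfrc, the transferrin receptor, by 0.16 ± 0.06. On a log2 scale of normalised counts the fall of Slc40a1 was 0.52, and after quantile normalization it was not called (limma adjusted p = 0.0591). Tfrc was not called without the replicate block (limma adjusted p = 0.0714), without a variance trend (0.0653) or without replicate 1 of wild type (0.0706) or of E79Q (0.0671). The calls lower were 5 after median centring and without replicate 2 of either genotype, and 1 with no filter on low values, where Slc40a1 and Tfrc were not called (limma adjusted p = 0.0567 and 0.0842). The calls higher were 5 without the replicate block.

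Because 4 of the 6 peroxidases contain selenocysteine, the machinery that inserts it and the other selenoproteins were read too. Of 11 tested genes of selenocysteine incorporation 2 were called higher (18.2%) and 1 lower (9.09%), with a median of -0.010. Over all genes tested the shares were 21.5% and 18.9%. Lrp8, a receptor for selenoprotein P, rose by 0.47 ± 0.07, Sars, the seryl-tRNA synthetase, by 0.14 ± 0.04 (not called without a variance trend, limma adjusted p = 0.0629), and Sephs2, which makes the active selenium donor, fell by 0.20 ± 0.05. The calls lower were 3 without the replicate block and without replicate 1 of either genotype. Of 14 tested other selenoproteins 5 were called higher (35.7%) and 2 lower (14.3%), beside the same 21.5% and 18.9%. The median was 0.02. Without the replicate block 4 genes were called lower. Txnrd1, cytosolic thioredoxin reductase, rose by 0.61 ± 0.05, and Selenos, a protein of the endoplasmic reticulum, by 0.57 ± 0.06. Selenoo rose by 0.42 ± 0.07, and by 0.69 on a log2 scale of normalised counts. Selenoh and Selenon fell by 0.32 ± 0.05 and 0.25 ± 0.06.

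**Figure D4:**
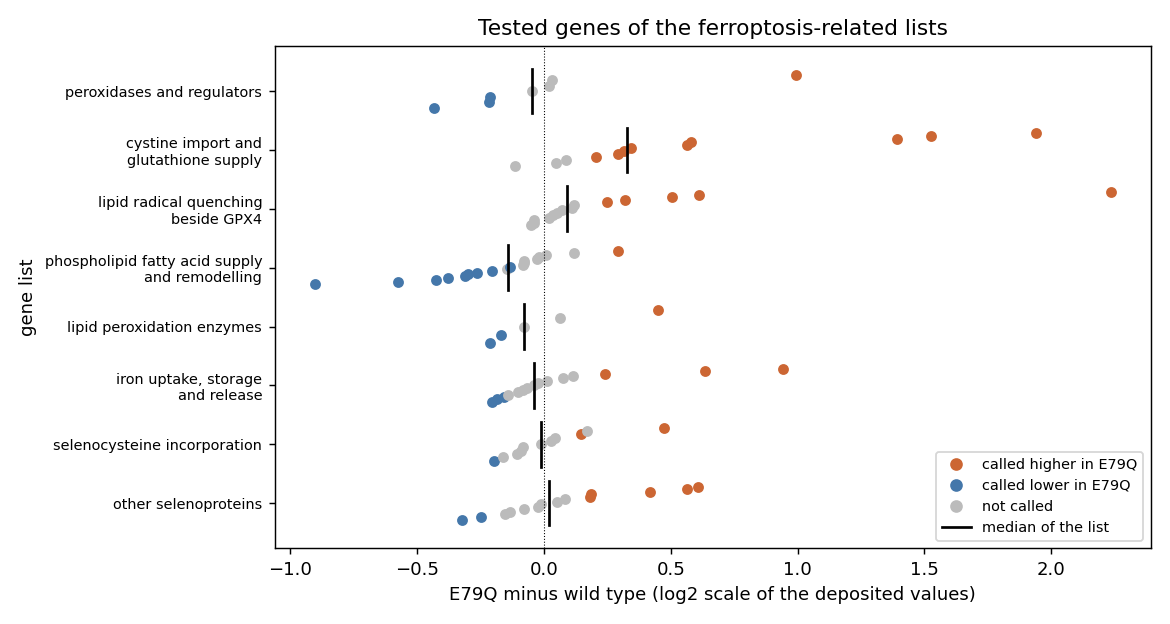
E79Q minus wild type (horizontal axis, log2 scale of the deposited values) for each tested gene of the peroxidase and regulator group and of 7 related lists (vertical axis). Each point is a gene, orange where called higher, blue where called lower and grey where not called, and the black bar is the median of the list. Glutathione supply lies mostly to the right of 0 (median 0.33) and the phospholipid fatty acid list mostly to the left (median -0.14).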

How the data were processed

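Per the file headers, the deposited matrix holds 1 column per library. The deposited log2 values are variance-stabilised. Per the submitters' processing notes, the build was mm9 and the tools were Salmon 0.11.3, STAR 2.5.2b, DESeq2 and DESeq 1.22.2. The sources used here do not give their roles, the annotation or the strand setting. Per the labels' protocols, extraction was by TRIzol and library preparation by a NEBNext Ultra kit.

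Wild type plus E79Q gave equal sums in replicates 1 and 2 for each of the 24444 genes (to within 1.31e-13), so the values had been centred on the replicate number. This is why the numbers pair the libraries. Deviations of same-numbered libraries from their genotype means correlate at -1 by this construction. The fit was genotype with a replicate block (1 residual degree of freedom), in limma 3.58.1 (R 4.3.3), with a mean-variance trend, two-sided tests and Benjamini-Hochberg adjustment, over genes at least 1 above the lowest value in at least 2 libraries (10857 genes). Prior degrees of freedom were 14.6, so most of the precision is borrowed from other genes. The fit was also run on data simulated from its own variance estimates and centred by pair, which checks the procedure and not the calls.

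Normalised counts were obtained by inverting the variance stabilisation from its floor (6.98), with values under the floor set to 0. They are approximate. Their sum was 13.5 to 13.9 M per library, after the authors' scaling for depth. The genes and lists were chosen with earlier results of these data known. Named are all 9 genes, the 3 largest called rises and falls of each list, and the 3 genes nearest to the largest rise and fall. Gsr, Chac1, Dhodh and Alox12 were named after their values were seen. Of the list of lipid radical quenching, 1 gene is not reported here and was left out of all list counts and medians. The alternatives were no replicate block, robust empirical Bayes, no trend, no filter (a floor in all 4 libraries excepted), a filter at 2, median centring, quantile normalization, log2 of normalised count plus 1, and each library left out.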

Additional observations from a re-analysis of the deposited data

How the results depend on the processing

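Gpx2 was called higher and Gpx1, Gpx8 and Lpcat3 were called lower under all 12 alternatives, and Gpx4, Aifm2 and Acsl4 were called under none of those run for them (12, 11 and 12). Without the replicate block the adjusted p was 0.00164 for Gpx2, 0.00235 for Gpx1, 0.0101 for Gpx8 and 0.00644 for Lpcat3, and the number of genes called over the whole table was 3122 higher and 2882 lower against 2333 and 2055. Because of the centring, the fit without the block gives the same differences. It counts 2 residual degrees of freedom where the centring leaves 1, so it overstates them and is no independent check. No call of the 7 tested genes of the group changed in it. Over the alternatives the difference ran from 0.96 to 1.11 for Gpx2, from -0.24 to -0.21 for Gpx1, from -0.38 to -0.20 for Gpx8 and from -0.55 to -0.40 for Lpcat3, with adjusted p-values of at most 0.00164, 0.0125, 0.0344 and 0.00644. Leaving out 1 library, which required a fit without the block in which the lone library is assumed to vary like the others, gave Aifm2 a difference from -0.041 to 0.080, reversed in direction without replicate 1 of either genotype and uncalled throughout; the cause was not tested. Because of the centring, leaving out either library of 1 replicate number gives the same difference, and the library left out still shapes the values that remain. The 4 such fits among the 12 alternatives are therefore 2 distinct checks. A crossed pairing of the replicate numbers gave no value, because the centring leaves it no residual (at most 1.30e-13). Of the other named genes, Por lost its call without the block (adjusted p = 0.0722), without a trend (0.0530) and with no filter (0.0559), Tfrc also without a trend (0.0653), Slc40a1 after quantile normalization (0.0591) and with no filter (0.0567), and Sars without a trend (0.0629); on the log2 scale of normalised counts Slc40a1 differed by -0.52. Gpx3 and Gpx7 had a test only without a filter. With 2 pairs and values already centred, the calls lean on the variance shared across genes, and small differences, such as those of Gpx4 and Acsl4, are not resolved.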
